A study of Mus musculus with 36 samples.

Results

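Cebpz (ENSMUSG00000024081) is 1 of 22979 genes listed in the tables of a SLAM-seq experiment in mouse embryonic stem cells (mES cells), and 1 of 18419 listed in all 6 tables. It was selected on its read level, which was far lower after acute depletion of YTHDC1, so every value of that contrast is given as a description without a test. SLAM-seq marks newly made RNA with 4-thiouridine (4sU), which is chemically modified and then read as C in place of T. The 36 libraries came from 3 degron lines, each a single clone, named for the protein that is degraded once dTAG-13 is added, METTL3 in clone 12D, YTHDC1 in clone Y12H and ZCCHC8 in clone Z12H. Ctrl cells received no dTAG-13, and dTAG cells received it from 2 h before doxycycline. In every group, Ctrl included, the protein that names the line carried the degron tag FKBP12^F36V. The cells were female and carried a TetOn promoter at Xist on the 129S allele of a Cast x 129S background. By the paper, a Bgl stem-loop array was also inserted in that Xist. All groups were given 1 µg/ml doxycycline, which began 20 h ahead of the 4sU pulse (500 µM, 4 h) and continued through it. A chase with 50 mM uridine followed for 0, 90 or 180 min, and each of the 18 groups had 2 replicates. By the study's reporting notes, sequencing replicates were independent repeats or clones, here repeats of 1 clone per line, and the wells of 1 replicate came from a common batch of cells. Fits with the replicate as a block, which compare the arms within such a batch, are therefore given beside the others where they change a call or a count by over 1.5 times.

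CEBPZ is a nucleolar protein related to the yeast factor Noc1 (Mak21), which takes part in the assembly of the large ribosomal subunit. It was first described as a factor that binds the CCAAT box of the HSP70 promoter, and it is not a member of the bZIP family of C/EBP proteins despite its name. METTL3 catalyses the methylation of adenosine in nascent RNA to N6-methyladenosine (m6A). YTHDC1 is the nuclear reader of m6A and acts in splicing, export and turnover of nuclear RNA, and ZCCHC8 belongs to the NEXT complex, which passes nuclear RNA to the exosome. CEBPZ has also been described in leukaemia cells as a protein that brings METTL3 to promoters.

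Cebpz lies on the minus strand of chromosome 17, from 78919006 to 78937066 (mm10), and has 5 annotated transcripts. The coding transcript Cebpz-201 has 16 exons and 4070 bases, of which 3159 are coding. The other transcripts are annotated as subject to nonsense-mediated decay, as retained introns or as a processed transcript, and the tables give 1 value for the gene. m6A is mostly written within a short consensus, of which GGACT is a common form. Both GGACT matches of Cebpz-201 lie in the coding part of exon 2, its largest exon with 1493 bases, and are shown because YTHDC1 reads the mark that can be placed there. They are printed 5′ to 3′ on the transcript strand (GENCODE M21 transcripts, GRCm38), with the match in capitals.
Site 1, chr17:78935239-78935267: cagtggcaacaaGGACTcgagagatagaa
Site 2, chr17:78934799-78934827: tttgtttctttcGGACTtgtatcaagaaa
No m6A was measured in these libraries, and a match is not a methylated site. The search was for GGACT on the transcript strand of 1 coding transcript per gene. With 2 matches, Cebpz holds 0.491 per kb, against a median over genes of 1.03 per kb and of 3 matches per transcript. GGACT occurs in 90.0% of 19682 coding genes, and 73.9% have at least as many matches as Cebpz.

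The start of Cebpz faces that of Ndufaf7, which encodes an assembly factor of mitochondrial complex I, on the opposite strand. The window of 250 bases before to 50 bases after the Ndufaf7 start (chr17:78936885-78937184, plus strand, RefSeq, GRCm38.p6) is shown because both genes start in it and their read levels are compared below. The 69 bases between the annotated starts are in capitals, and Cebpz is read leftwards from their left edge.
Ndufaf7 and Cebpz starts: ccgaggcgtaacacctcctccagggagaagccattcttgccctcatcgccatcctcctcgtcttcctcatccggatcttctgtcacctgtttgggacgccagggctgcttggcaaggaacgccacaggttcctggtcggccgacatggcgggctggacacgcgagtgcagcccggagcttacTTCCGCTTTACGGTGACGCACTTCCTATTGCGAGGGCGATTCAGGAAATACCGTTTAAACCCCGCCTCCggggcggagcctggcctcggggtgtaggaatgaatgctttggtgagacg

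Libraries held 5274684 to 18652000 reads, fewest in the ZCCHC8 line. All 9 markers of mES cells passed the filter on low counts, and their summed level was 2537 to 3675 CPM (the reads of a gene as a share of its library, scaled to a common total) in every group of the 3 lines. By the paper, the feeder fibroblasts of routine culture were discarded by preplating before SLAM-seq. Of 9 markers of such fibroblasts, 5 passed, with a summed level of 8.31 to 32.9 CPM. With ZCCHC8 depleted, 1 of these (Col6a1, with 2.29 CPM in Ctrl against 4.25 with dTAG-13, edgeR adjusted p 0.00155) and 3 of the mES cell markers passed as higher, beside 20.1% of all genes. Their part in the results was not tested. None of either list passed in the other lines by edgeR without the block, beside 20.1% of all genes in the METTL3 and 5.25% in the YTHDC1 line. At an unadjusted p under 0.05 were 2 of each list in the METTL3 line and 1 mES cell marker in the YTHDC1 line. DESeq2 called 1 mES cell marker in each of these lines. With the block, 3 mES cell markers were higher and 2 lower in the METTL3 line, and 1 fibroblast marker was higher and 1 lower, beside 24.4% and 24.1% of all genes. In the YTHDC1 line 1 mES cell marker was higher and 2 lower with the block, beside 13.2% and 14.1% of all genes. In the ZCCHC8 line 4 mES cell markers were higher and 1 lower with the block, beside 23.1% and 22.8% of all genes. The mRNA of the tagged genes does not check the depletion, which acts on protein. In the YTHDC1 line Ythdc1 mRNA itself rose (log2 fold change 0.60 with an SE of 0.095, adjusted p 0.00487 by edgeR, all 6 pairs higher), where a pair is a dTAG and a Ctrl library of the same table and chase time.

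With acute depletion of YTHDC1, Cebpz reads were at 23.4%, 25.1% and 28.4% of the Ctrl mean at 0, 90 and 180 min. At 0 min Cebpz was at 393 and 386 CPM in the 2 Ctrl replicates and at 91.7 and 90.6 CPM with dTAG-13. At 90 min it was at 387 and 327 CPM in Ctrl and at 88.1 and 91.4 CPM with dTAG-13. At 180 min the Ctrl replicates held 296 and 286 CPM and the dTAG replicates 78.9 and 86.4 CPM. The 6 Ctrl and 6 dTAG libraries did not overlap, and the highest dTAG library was below the lowest Ctrl library at any chase time. In reads, Cebpz had 3754 to 4885 per Ctrl library and 916 to 1185 per dTAG library, so counting error was small beside the difference.

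The Ctrl mean was 4.27, 3.98 and 3.52 times the dTAG mean at 0, 90 and 180 min. The mean was lower at each later chase time in both arms, at 390, 357 and 291 CPM in Ctrl and at 91.2, 89.8 and 82.6 CPM with dTAG-13. The fall was steeper in Ctrl, so that the ratio narrowed with time. The fitted log2 fold change was -2.00 (SE 0.087), with single pairs from -2.13 to -1.72, beside a median over all 14199 genes tested of 0.0064. The order of fold changes put Cebpz lowest, just below Gm43597 at -1.91 and Tbc1d10c at -1.58. These are the values that chose the gene, and 5.25% of the genes tested passed the threshold (edgeR adjusted p under 0.05) in this contrast, or 27.3% with the replicate block. In bulk RNA, fewer cells that express a gene and less RNA per cell cannot be told apart.

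**Figure D1:**
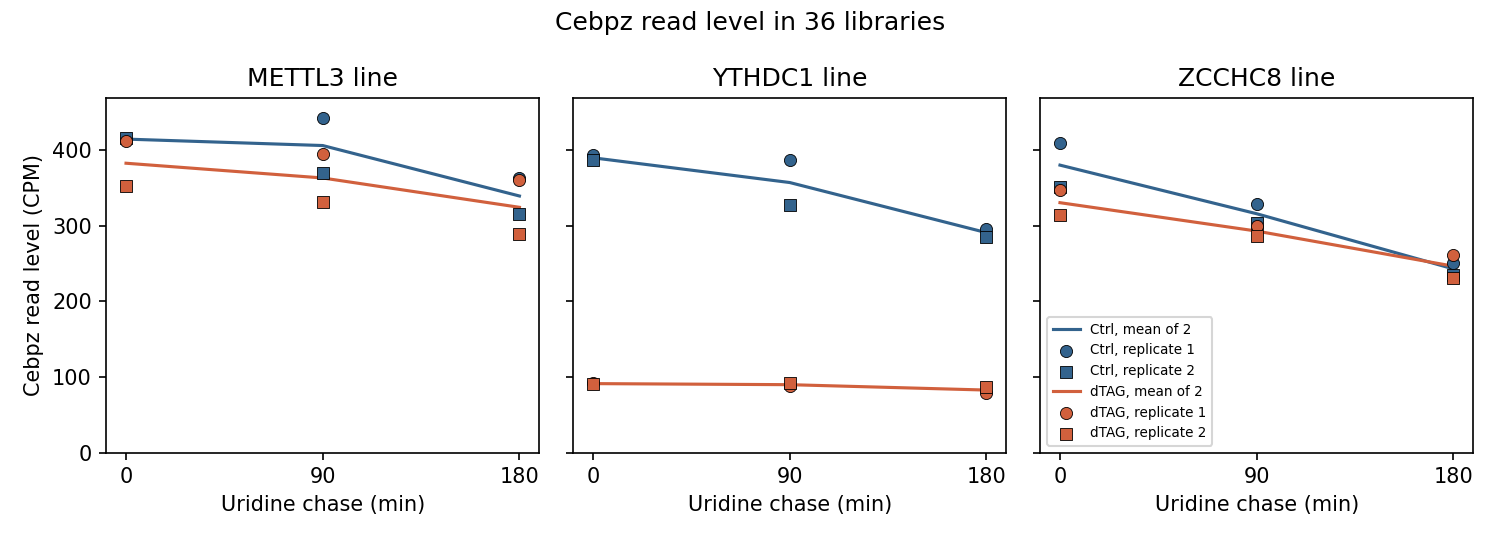
Cebpz read level in CPM (y axis) against the uridine chase in minutes (x axis) in the METTL3, YTHDC1 and ZCCHC8 lines. Circles and squares are replicates 1 and 2, lines are means of 2, Ctrl is blue and dTAG orange. The 6 dTAG libraries of the YTHDC1 line lie between 78.9 and 91.7 CPM, apart from all other libraries.

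Depletion of METTL3 or ZCCHC8 was a contrast that did not choose the gene, and neither gave a difference of this size. In the METTL3 line the 6 Ctrl libraries ranged from 315 to 442 CPM with a median of 391, and the 6 dTAG libraries from 288 to 412 CPM with a median of 356. The arms overlapped widely, although Cebpz was lower with dTAG-13 in 6 of 6 pairs. The log2 fold change was -0.13 (SE 0.13, edgeR adjusted p 0.526 over 14413 genes, 20.1% of which passed, or 48.5% with the block). This rested on both replicates, since in replicate 2 alone, without replicate 1, it was -0.20 (SE 0.060, edgeR adjusted p 0.00295).

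After depletion of ZCCHC8, Cebpz ranged from 235 to 409 CPM in Ctrl with a median of 316, and from 231 to 347 CPM with dTAG-13 with a median of 293. The arms again overlapped, and dTAG was lower in 5 of 6 pairs. The log2 fold change was -0.097 (SE 0.059, edgeR adjusted p 0.199 over 13962 genes, 39.6% of which passed). With the replicate block it was -0.096 (SE 0.040) and narrowly passed, at an edgeR adjusted p of 0.0498, beside 45.9% of genes. The responses of the METTL3 and ZCCHC8 lines differed by -0.00041 in log2 fold change (SE 0.14, edgeR adjusted p 0.999 for the interaction, with 23.7% of 15101 genes called, or 43.6% with the block), so a difference between them was not detected at this spread.

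The share of Cebpz reads that were newly made was higher with dTAG-13 in the YTHDC1 line at the end of the pulse. The tables give a new-to-total ratio from 0 to 1, as the maximum of its posterior distribution (MAP), and the conversions and T coverage behind it. In the YTHDC1 line the ratio at 0 min was 0.311 and 0.343 in Ctrl and 0.586 and 0.566 with dTAG-13. At 90 min it was 0.375 and 0.409 in Ctrl and 0.526 and 0.608 with dTAG-13. At 180 min it was 0.450 and 0.435 in Ctrl and 0.413 and 0.409 with dTAG-13. The dTAG libraries were thus higher at 0 and 90 min and lower at 180 min.

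The posterior intervals (5% to 95%) of the YTHDC1 arms were apart at 0 min, with 0.323 as the upper bound in Ctrl replicate 1 and 0.559 as the lower bound in dTAG replicate 1. Over the 3 chase times the ratio differed by 0.41 on the log2 scale (SE 0.11), beside a median over genes of -0.026. It was higher with dTAG-13 in 4 of 6 pairs, and the pairs spread from -0.12 to 0.92, where 0.635% of genes passed by limma, or 1.05% with the block. Ratios are estimated within a table, and all pairs were formed within one.

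The T-to-C rate, which needs no model, gave the same order. At 0 min the rate over Cebpz was 2.75% (95% Wilson interval 2.67% to 2.84%) and 2.80% (2.71% to 2.89%) in the Ctrl replicates of the YTHDC1 line. With dTAG-13 it was 4.68% (4.46% to 4.91%) and 4.56% (4.33% to 4.80%). The intervals cover counting error only, since PCR reads are not independent molecules. In the overlapping parts of read pairs, where both mates show the mismatch, the rate at 0 min was 2.77% and 2.82% in Ctrl and 4.92% and 5.05% with dTAG-13. The number of T positions covered per Cebpz read was 28.9 ± 0.322 in Ctrl and 28.4 ± 1.04 in dTAG (SD, n = 6).

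Compared with other genes of the same library, Cebpz carried little label in Ctrl at 0 and 90 min, but not at 180 min. At 0 min 24.7% and 24.3% of genes with at least 100 reads had a lower ratio than Cebpz in the Ctrl replicates of the YTHDC1 line. With dTAG-13 these shares were 49.9% and 46.3%, close to the middle of all genes. At 90 min the shares were 25.8% and 24.4% in Ctrl and 55.8% and 50.3% in dTAG. At 180 min they were 64.7% and 65.8% in Ctrl and 64.0% and 55.4% in dTAG, so Cebpz then ranked above the middle in both arms. At 0 min the median gene itself had a ratio of 0.560 and 0.611 in Ctrl and of 0.587 and 0.607 in dTAG, so the overall label differed little between the arms.

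The new-to-total ratio went in opposite directions over the chase in the 2 arms of the YTHDC1 line. The T-to-C rate did so in replicate 1 only. Its slope on the log2 scale was 0.080 and -0.022 per h in Ctrl replicates 1 and 2, and -0.26 and -0.28 in dTAG. In Ctrl the ratio at 180 min was 145% and 127% of that at 0 min in replicates 1 and 2. With dTAG-13 it was 70.4% and 72.3% of that at 0 min. The slope of the ratio was 0.18 and 0.11 per h on the log2 scale in Ctrl and -0.17 and -0.16 per h in dTAG. Their difference was -0.31 per h (SE 0.064), and was -0.35 and -0.27 in the 2 replicates, beside a median over genes of -0.029. It was the seventh lowest of 8820 genes tested, none of which passed the threshold in this contrast (0% by limma, with 170 at an unadjusted p under 0.05).

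The Cebpz ratio was higher at 180 min than at 0 min in both arms of the METTL3 and ZCCHC8 lines. The ratio at 180 min was 137% and 156% of that at 0 min in METTL3 Ctrl, and 113% and 160% in METTL3 dTAG. In the ZCCHC8 line it was 194% and 169% in Ctrl and 170% and 179% in dTAG. Among the 12 combinations of line, arm and replicate, the ratio was lower at 180 min only in the dTAG arm of the YTHDC1 line, in both replicates. A positive slope was not the rule among genes in the YTHDC1 line, where 39.5% and 34.7% of genes had one in the Ctrl replicates, and 88.8% and 82.0% had a slope below that of Cebpz. In the dTAG replicates 46.6% and 47.0% of genes had a slope below that of Cebpz, which was thus close to the middle of all genes. The T-to-C rate of Cebpz at 180 min was 118% and 95.5% of that at 0 min in Ctrl replicates 1 and 2 of that line, while the median gene was at 64.1% and 55.3%.

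**Figure D2:**
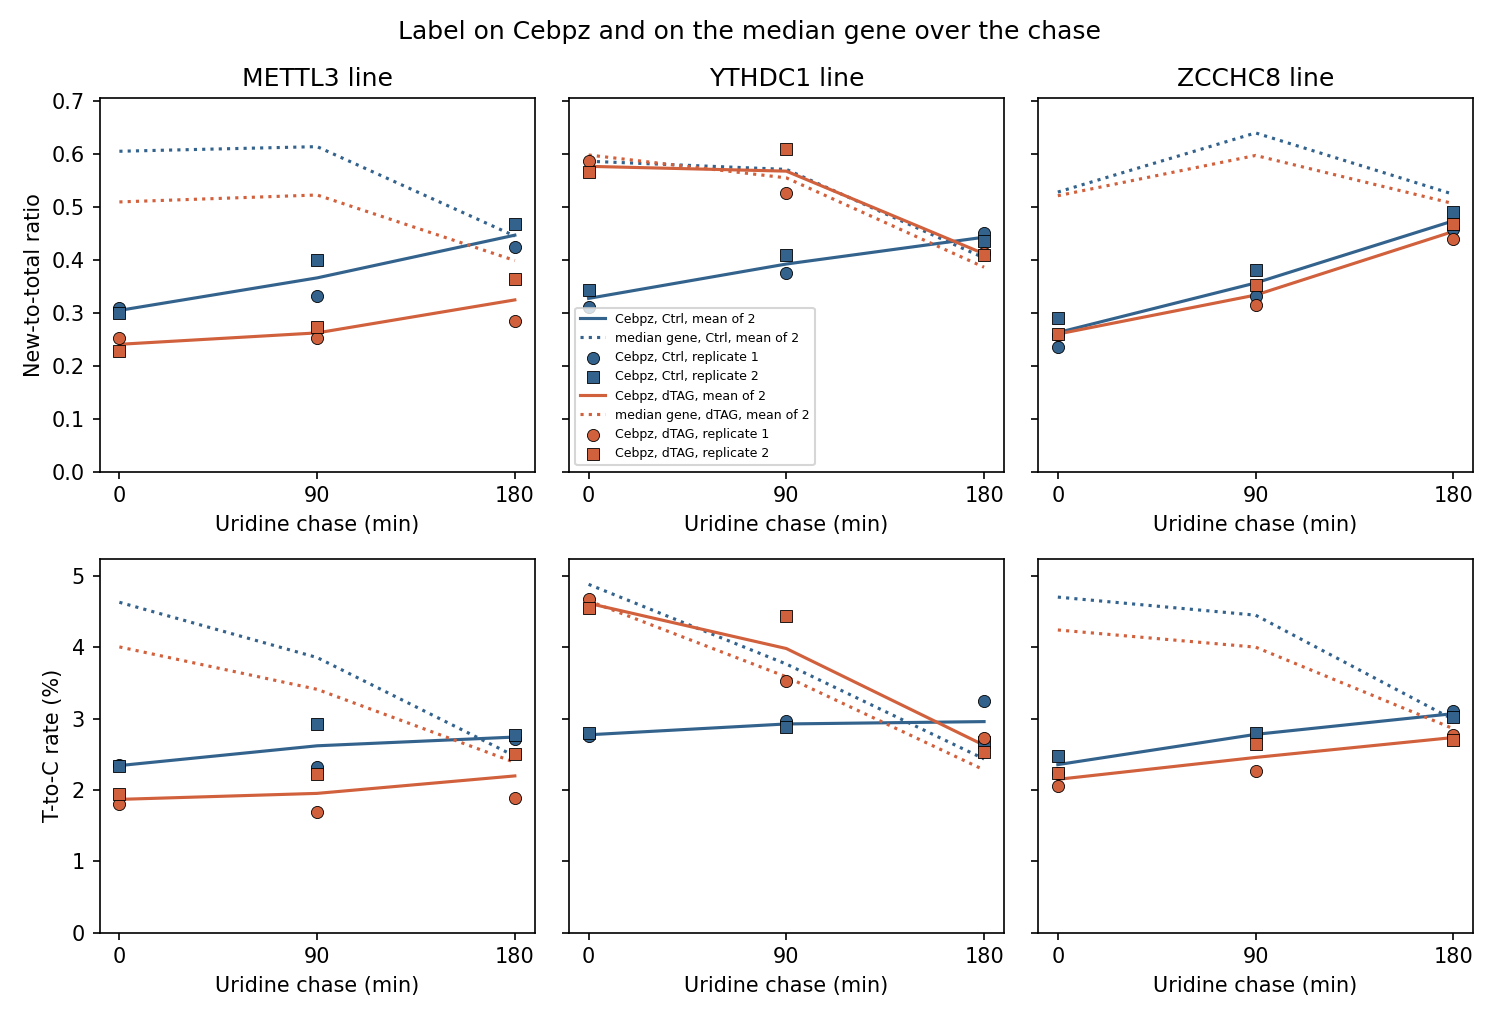
New-to-total ratio (top) and T-to-C rate in percent (bottom) against the uridine chase in minutes. Solid lines are Cebpz means of 2 with replicates as circles and squares, and dotted lines the median gene with at least 100 reads. In the dTAG arm of the YTHDC1 line Cebpz follows the median gene, from 0.586 and 0.566 down to 0.413 and 0.409, whereas its ratio rises over the chase in the other arms.

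A half-life from the loss of label could be fitted only where label was lost. In the dTAG arm of the YTHDC1 line it was 6.17 ± 0.342 h from the ratio (SD, n = 2). From the T-to-C rate it was 3.69 ± 0.214 h, and from new RNA in CPM it was 4.87 ± 1.02 h. The value thus depends on the measure by over 1.5 times. In that arm the ratio of the median gene had slopes of -0.14 and -0.13 per h on the log2 scale, beside -0.17 and -0.16 for Cebpz. The Cebpz ratio in dTAG replicate 2 was 0.566, 0.608 and 0.409 at 0, 90 and 180 min, so its loss was not steady. No half-life was obtained from the ratio in any other arm, where its slope was positive. In Ctrl replicate 2 of the YTHDC1 line the T-to-C rate gave 44.8 h and new RNA 32.3 h, and in dTAG replicate 1 of the METTL3 line new RNA gave 129.6 h. The other replicate of each had a positive slope, and no other value was obtained.

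The ratio after the pulse alone gives another estimate if synthesis and decay were constant over the 4 h of label, which was not tested. It came to 7.03 ± 0.597 h in Ctrl and 3.23 ± 0.130 h in dTAG in the YTHDC1 line (SD, n = 2). In the METTL3 line it was 7.65 ± 0.229 h in Ctrl and 10.1 ± 0.840 h in dTAG, and in the ZCCHC8 line 9.23 ± 1.55 h and 9.23 ± 0.0528 h. The order of the arms thus differed between the lines. In the METTL3 line the median gene also had a lower ratio at 0 min with dTAG-13, at a mean of 0.509 against 0.604 in Ctrl. Exact permutation of 2 values against 2 cannot reach the threshold, and these half-lives were not tested.

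New RNA (CPM multiplied by the ratio) and old RNA (the remainder) of Cebpz were both lower with dTAG-13 in the YTHDC1 line, old RNA by more at the start of the chase. Old RNA is the part estimated to have no label. It would hold RNA made before the pulse and during the chase if labelling ended with the pulse, which was not tested. From 0 to 180 min, mean new RNA went from 126 to 151 CPM in METTL3 Ctrl and from 98.9 to 115 CPM in ZCCHC8 Ctrl. Mean old RNA went from 288 to 188 CPM and from 281 to 128 CPM in these arms. At 0 min new Cebpz RNA was at 122 and 132 CPM in Ctrl and at 53.8 and 51.2 CPM with dTAG-13, a mean of 41.3% of Ctrl. Old RNA was at 271 and 254 CPM in Ctrl and at 37.9 and 39.4 CPM with dTAG-13, a mean of 14.7% of Ctrl. The dTAG arm thus held less of both, without overlap.

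The proportions changed over the chase. At 180 min new RNA was at 133 and 124 CPM in Ctrl and at 32.6 and 35.3 CPM with dTAG-13, or 26.4% of Ctrl. Old RNA at 180 min was at 163 and 162 CPM in Ctrl and at 46.3 and 51.0 CPM with dTAG-13, or 30.0% of Ctrl. From 0 to 180 min new RNA in Ctrl was thus about level while old RNA was lower at the end, and in dTAG new RNA was lower and old RNA slightly higher at the end. Over all chase times the log2 fold change was -1.54 (SE 0.11) for new and -2.31 (SE 0.16) for old RNA, on the scale of log2(CPM + 0.5), beside medians over genes of 0.023 and 0.050. Of the 8820 genes tested, 2.27% passed for new and 1.12% for old RNA by limma in this contrast, which chose the gene, and 15.7% and 11.7% with the replicate block.

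**Figure D3:**
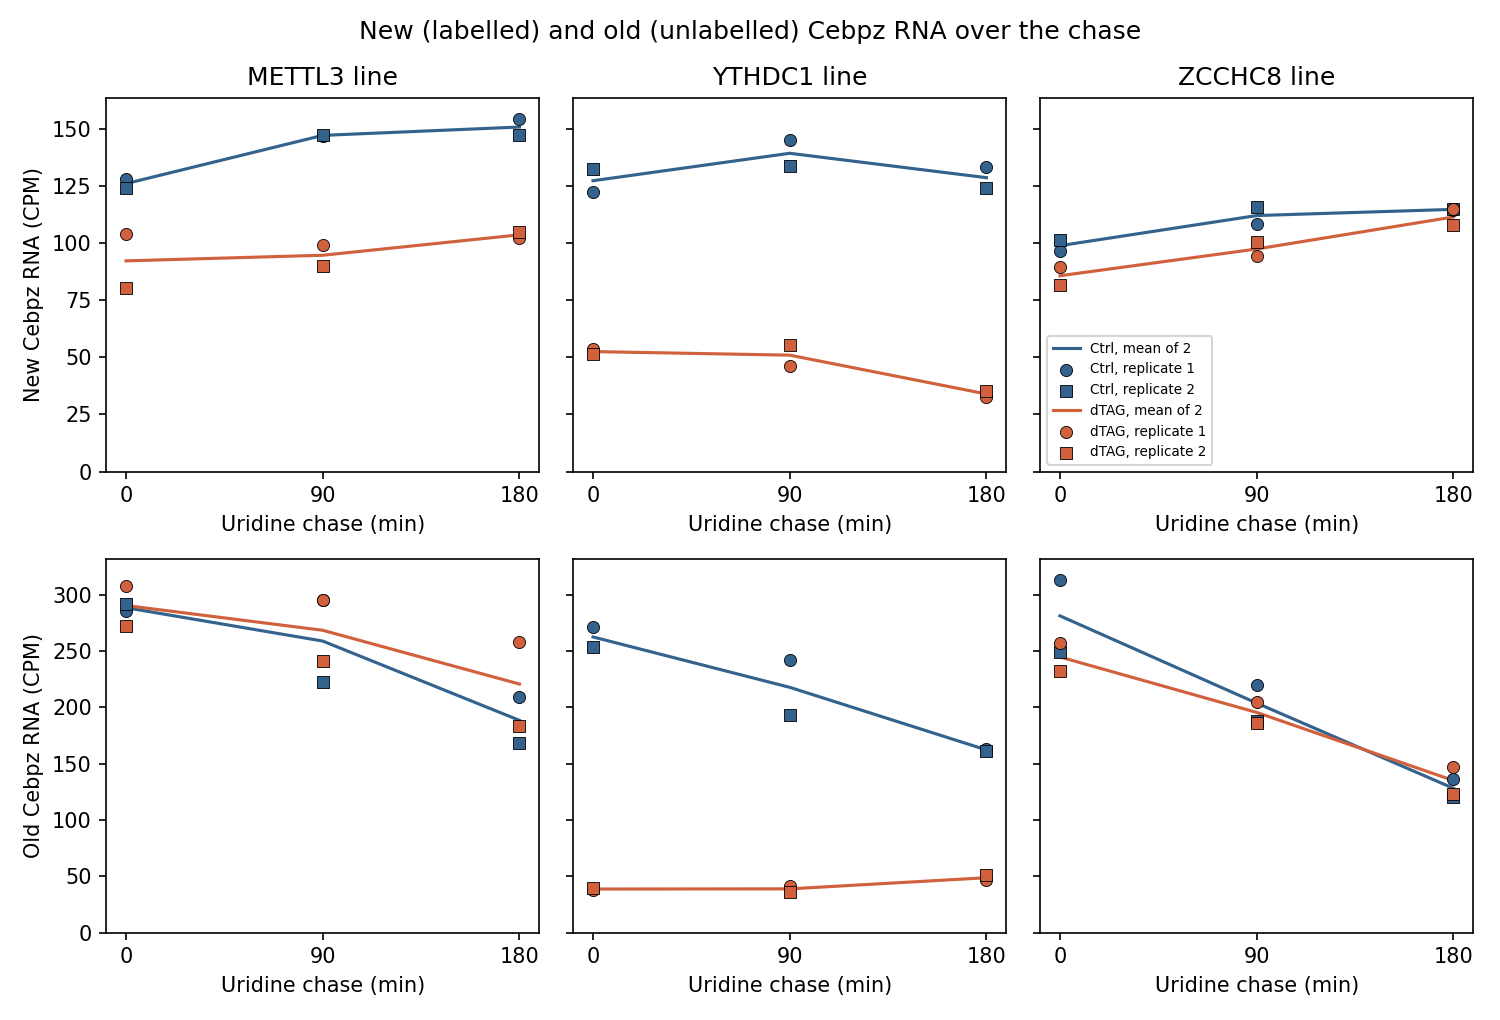
New (top) and old (bottom) Cebpz RNA in CPM against the uridine chase in minutes, by line and arm; circles and squares are replicates, lines are means of 2. In the YTHDC1 line both stay far below Ctrl with dTAG-13, at 32.6 to 55.6 CPM for new and 35.8 to 51.0 CPM for old RNA, and in the METTL3 line only new RNA is apart between the arms.

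Acute depletion of METTL3 lowered new Cebpz RNA and left old RNA without a detected difference. New RNA ranged from 124 to 154 CPM in the 6 Ctrl libraries, with a median of 147, and from 80.4 to 105 CPM in the 6 dTAG libraries, with a median of 101. The groups did not overlap. The log2 fold change was -0.54 (SE 0.097, limma adjusted p 0.00633, lower in 6 of 6 pairs), where 10.4% of 8289 genes passed (34.9% with the block) and 7.79% passed as lower. Old RNA ranged from 168 to 295 CPM in Ctrl and from 184 to 308 CPM in dTAG, a log2 fold change of 0.094 (SE 0.14, limma adjusted p 0.691, 19.7% of genes called, or 39.3% with the block). The median gene had a log2 fold change of -0.13 for new and of 0.18 for old RNA in this line.

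The new-to-total ratio of Cebpz also fell in the METTL3 line. It ranged from 0.299 to 0.468 in Ctrl with a median of 0.366, and from 0.228 to 0.364 in dTAG with a median of 0.262. The log2 difference was -0.43 (SE 0.090, limma adjusted p 0.00138, lower in 6 of 6 pairs), and 27.3% of genes passed (36.7% with the block), 24.5% as lower. The median gene fell too, by 0.15 on the log2 scale. Relative to the library median, an alternative chosen after the data were seen, the difference of Cebpz was -0.21 (SE 0.051, limma adjusted p 0.00638). By the T-to-C rate it was -0.36 (SE 0.12, limma adjusted p 0.0905), which missed the threshold, and in replicate 1 alone, without replicate 2, it was -0.42 (SE 0.094, limma adjusted p 0.0566).

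In the ZCCHC8 line none of the label measures of Cebpz passed the threshold. The log2 difference of the ratio was -0.055 (SE 0.062, limma adjusted p 0.723, with 1.35% of 7251 genes called, or 1.6% with the block). New RNA differed by -0.15 (SE 0.063, limma adjusted p 0.0957, lower in 5 of 6 pairs, with 24.3% of genes called, or 28.6% with the block) and old RNA by -0.059 (SE 0.088, limma adjusted p 0.658, with 19.3% called, or 21.6% with the block). New RNA ranged from 96.4 to 116 CPM in Ctrl and from 81.7 to 115 CPM in dTAG, which overlapped. The change of label over the chase differed between arms by -0.018 per h (SE 0.057, limma adjusted p 1.00) in the ZCCHC8 line and by -0.043 per h (SE 0.080, limma adjusted p 0.996) in the METTL3 line, with 0% and 0.386% of genes called (0% and 1% with the block). The 0% is by limma, with 127 genes at an unadjusted p under 0.05.

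The genes around Cebpz were examined next. Cebpz had the lowest fold change of all genes tested in the YTHDC1 line, so each neighbour had to lie above it there. Of 14 other genes in the tables within 500 kb, 11 passed the filter on low counts in each line. After YTHDC1 depletion their log2 fold changes ran from -0.33 to 0.33 with a median of -0.063, and 1 of 11 passed the threshold, beside 5.25% of all genes. With the replicate block 3 passed, beside 27.3%. The 1 that passed in both fits was Cdc42ep3, which encodes an effector of the GTPase CDC42 and starts 418025 bases from Cebpz, with 27.6 ± 4.43 CPM in Ctrl against 22.3 ± 2.80 CPM with dTAG-13 (SD, n = 6; log2 fold change -0.33, SE 0.079, edgeR adjusted p 0.0343).

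Ndufaf7, which starts 70 bases from Cebpz, had 28.0 ± 3.56 CPM in the Ctrl arm of the YTHDC1 line and 35.9 ± 3.27 CPM in its dTAG arm (SD, n = 6). It was higher with dTAG-13 in 6 of 6 pairs but missed the threshold (log2 fold change 0.33, SE 0.11, edgeR adjusted p 0.116). With the replicate block the fitted value was again 0.33, with an SE of 0.066, and passed (edgeR adjusted p 0.000682). Cebpzos overlaps the 3′ end of Cebpz by 1301 bases on the opposite strand, and the library kit kept strand while its use in counting was not stated. Cebpzos had 34.2 ± 2.90 CPM in Ctrl libraries against 33.6 ± 2.42 CPM with dTAG-13 (log2 fold change -0.063, SE 0.096, edgeR adjusted p 0.824). The read level of the overlapping gene was far below that of Cebpz in Ctrl, and its arms differed by less than their spread. Whether the genes share reads in the overlap was not tested.

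Among the other neighbours in the YTHDC1 line, Heatr5b had a log2 fold change of 0.24 (edgeR adjusted p 0.0548), Gpatch11 of 0.19 and Strn, a scaffold of the STRIPAK phosphatase complex, of 0.16. Prkd3, a protein kinase D, was at -0.11, the pseudogene Gm10093 at -0.11, Eif2ak2, the double-stranded RNA-activated kinase PKR, at -0.18, and Sult6b1 at -0.16. Qpct, a glutaminyl cyclase, was at 0.32 with a level of 2.27 CPM in Ctrl. None of these passed by edgeR without the block, with adjusted p-values above that of Heatr5b for the rest, and with the block only Heatr5b did (edgeR adjusted p 0.00274).

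After METTL3 depletion 2 of 11 neighbours passed, beside 20.1% of all genes. Ndufaf7 rose from 26.7 ± 3.35 to 42.1 ± 6.24 CPM (SD, n = 6; log2 fold change 0.63, SE 0.14, edgeR adjusted p 0.0104, with all 6 pairs higher), and Gm10093 fell by 0.42 on the log2 scale (edgeR adjusted p 0.0321). The block added Gpatch11 and Heatr5b, at -0.28 and -0.25 (edgeR adjusted p 0.0186 and 0.0159), beside 48.5% of all genes. After ZCCHC8 depletion 1 of 11 passed, beside 39.6% of all genes, namely Prkd3, which fell by 0.23 (edgeR adjusted p 0.00307). The block added Gm10093 at 0.17 and Heatr5b at -0.16 (edgeR adjusted p 0.0499 and 0.0275), beside 45.9% of all genes. Ndufaf7 was at -0.092 in that line (SE 0.072, edgeR adjusted p 0.328).

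**Figure D4:**
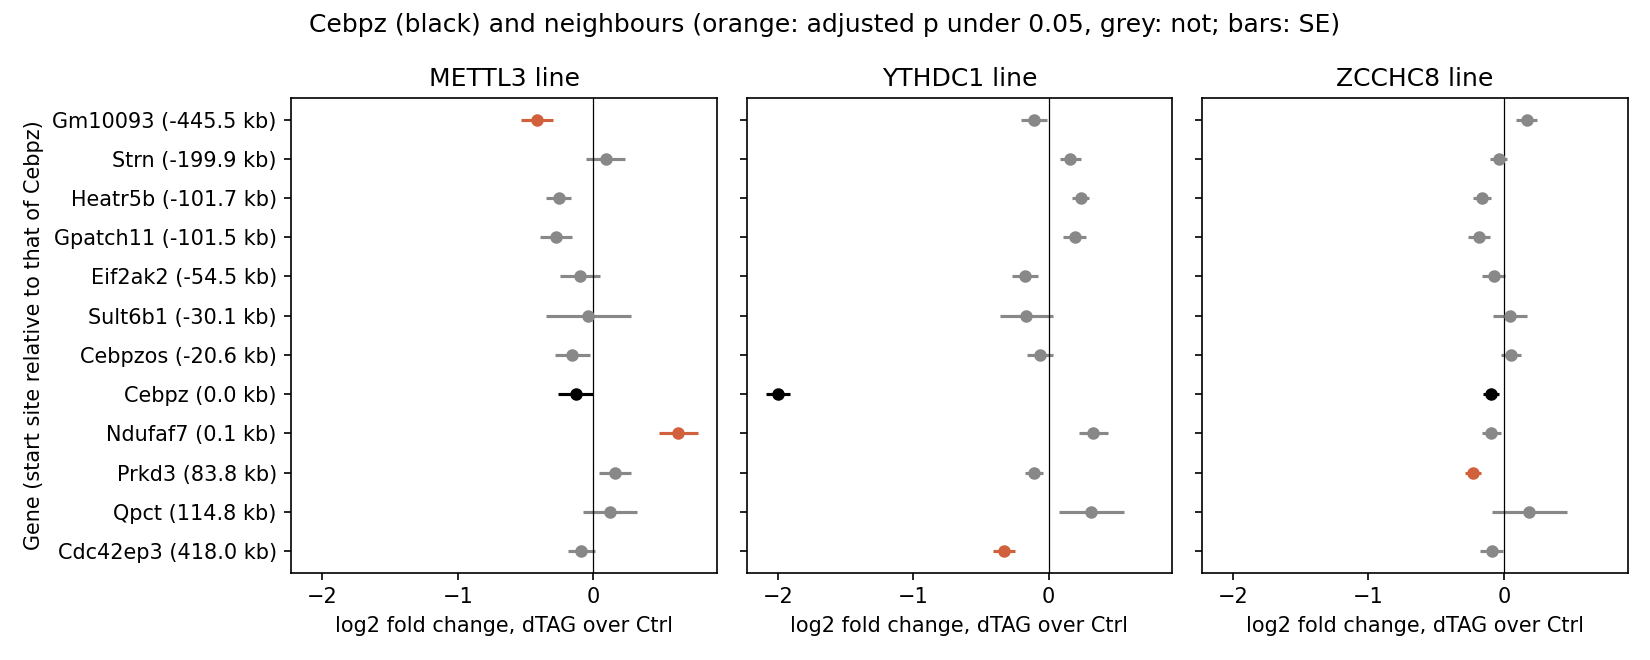
Log2 fold change of dTAG over Ctrl read level (x axis, bars are SE) for Cebpz and its 11 tested neighbours within 500 kb, ordered by start site (y axis). Black is Cebpz, orange passed an edgeR adjusted p of 0.05 in the fit without a replicate block, and grey did not. In the YTHDC1 line Cebpz lies at -2.00 and the neighbours between -0.33 and 0.33.

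For genes of ribosome assembly, the known setting of CEBPZ, the number that passed in the YTHDC1 line depended on the replicate block. Of 40 other assembly factors of the large (60S) subunit, all tested, 0 passed the threshold by edgeR without the block, with 5 at an unadjusted p under 0.05 and 4 called by DESeq2. Their median log2 fold change was -0.091, beside 0.0064 over all genes, and they ranged from -0.45 to 0.20. With the block 14 fell and 1 rose, beside 14.1% and 13.2% of all genes. The greatest falls were those of Ddx56, Ftsj3, Nip7 and Urb2, at -0.44, -0.37, -0.34 and -0.28 on the log2 scale, and Tex10 rose by 0.18 (each lower or higher in 6 of 6 pairs, edgeR adjusted p at most 0.00297). Of 34 factors of the small (40S) subunit, 1 rose and 2 fell, beside 2.48% and 2.77% of all genes, with a median of -0.072. With the block 1 rose and 11 fell. Utp14a, a helicase cofactor of the small subunit processome, rose from 329 ± 44.4 to 524 ± 82.5 CPM (SD, n = 6; log2 fold change 0.63, SE 0.097, edgeR adjusted p 0.00411). Noc4l, a relative of CEBPZ in the Noc family, fell by 0.43 (SE 0.10, edgeR adjusted p 0.0329) and Imp3 by 0.47 (SE 0.11, edgeR adjusted p 0.0365) on the log2 scale, each in 6 of 6 pairs. Next to these with the block were Utp3 at -0.34 and Tbl3 at -0.28 (edgeR adjusted p 0.000263 and 0.00129).

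Depletion of METTL3 gave more calls, and 6 of the 40 large subunit factors rose and 3 fell, beside 11.3% and 8.8% of all genes. Those with the greatest rise were Nop2, an rRNA methyltransferase, at 0.62, Rrp15 at 0.60, Senp3 at 0.44 and Ddx24 at 0.40 on the log2 scale, and those that fell were Ddx56, Ebna1bp2 and Pes1, at -0.39, -0.38 and -0.30. Of the small subunit factors 4 rose and 2 fell, led by Imp3 at 0.81 and Tbl3 at -0.69. With ZCCHC8 depleted, 5 large subunit factors rose and 5 fell, beside 20.1% and 19.5% of all genes, led by Urb1 at 0.28 and Rrp1 at -0.41. There 8 small subunit factors rose, led by Imp3 at 0.47 and Tbl3 at 0.40, and 3 fell, led by Utp14a at -0.19. All of these passed an edgeR adjusted p of 0.05. With the block, 10 large subunit factors rose and 10 fell in the METTL3 line, and 10 rose and 8 fell in the ZCCHC8 line, beside 24.4% and 24.1%, and 23.1% and 22.8%, of all genes. Of the small subunit factors 9 rose and 8 fell in the METTL3 line with the block. Both lists thus held members that rose and members that fell in these 2 lines.

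**Figure D5:**
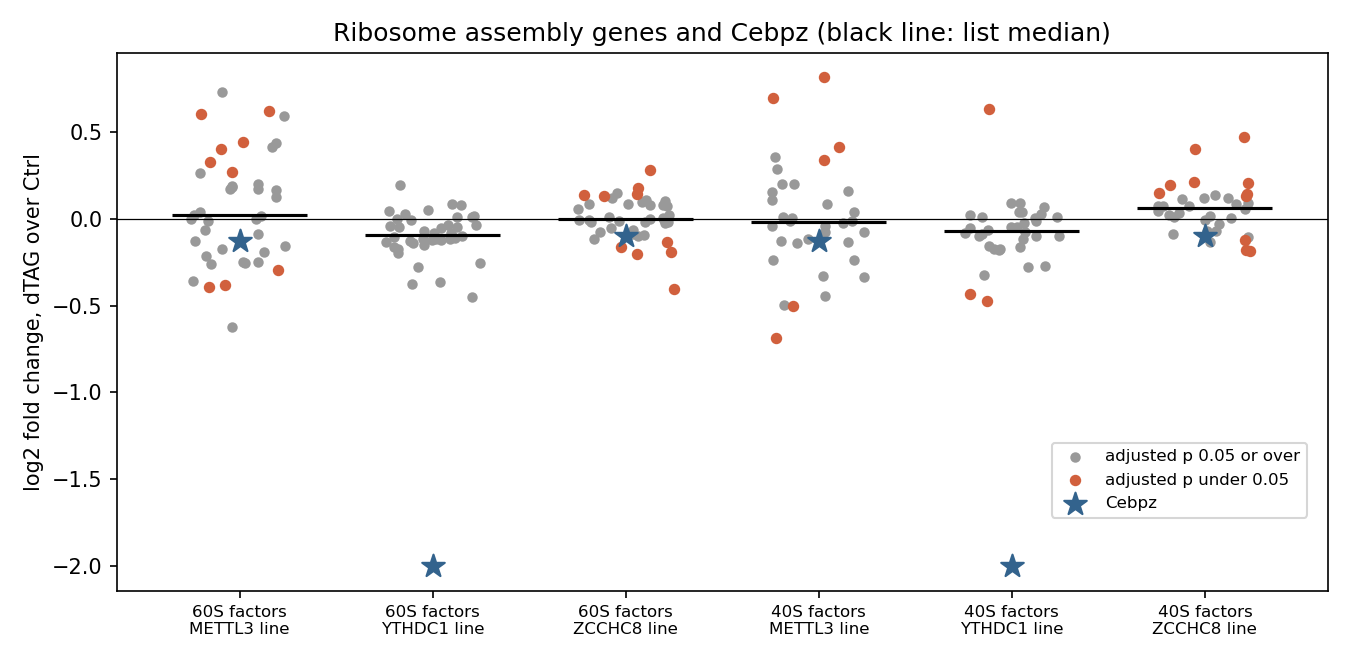
Log2 fold change of dTAG over Ctrl read level (y axis) for 40 large (60S) and 34 small (40S) subunit assembly genes in each line (x axis), with Cebpz as a star. Points spread sideways at random for display, orange points passed an edgeR adjusted p of 0.05 without a replicate block, and black lines are list medians. In the YTHDC1 line Cebpz, chosen on this contrast and lowest of all genes tested, lies at -2.00. The lowest list member lies at -0.47.

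Factors that share the CCAAT box or the C/EBP name were examined as well. Of 8 such genes 7 were tested, and in the YTHDC1 line 0 passed by edgeR, with 1 at an unadjusted p under 0.05 and 0 by DESeq2, beside 5.25% of all genes. With the block Nfyc rose and Cebpg fell (edgeR adjusted p 0.00167 and 0.0181), beside 27.3%. The subunits of NF-Y, the main CCAAT-binding complex, were at -0.12 (Nfya), -0.11 (Nfyb) and 0.22 (Nfyc) on the log2 scale. With METTL3 depleted, Cebpa rose by 0.75, from 2.16 to 3.69 CPM (edgeR adjusted p 0.0122), the 1 of 7 that passed beside 20.1% of all genes, and Cebpd passed too with the block, at 0.80 (edgeR adjusted p 0.0029). With ZCCHC8 depleted, Cebpa and Cebpd rose by 0.96 and 0.98, from 3.02 and 2.83 CPM in Ctrl, and Nfyb fell by 0.13, each past the threshold by edgeR, where 39.6% of all genes passed.

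The HSP70 genes Hspa1a and Hspa1b, and Sp1 and Sp2, which have been described as genes where CEBPZ brings METTL3 to the promoter, did not pass in the YTHDC1 line (0 of 4 by edgeR, 0 by DESeq2 and 0 at an unadjusted p under 0.05), beside 5.25% of all genes. With the block Sp2 passed, at 0.33 (edgeR adjusted p 0.0414), beside 27.3%. Hspa1a was at 3.95 and 3.29 CPM in Ctrl and dTAG, and Hspa1b at 5.53 and 4.39 CPM. Sp1 was at 347 and 345 CPM, and Sp2 at 34.3 and 42.7 CPM. Hspa1a and Hspa1b are near-identical copies, so their split of reads is uncertain. After METTL3 depletion 0 of 4 passed by edgeR, with 1 at an unadjusted p under 0.05 and 0 by DESeq2, beside 20.1% of all genes. With the block 3 passed beside 48.5%, Hspa1b at 0.45, Hspa1a at -0.52 and Sp2 at -0.65 (edgeR adjusted p 0.0247, 0.0264 and 0.0387). In the ZCCHC8 line Hspa1b rose by 0.47 and Sp2 fell by 0.32 on the log2 scale, beside 39.6% of all genes.

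Of 13 genes of the m6A writer complex and the YTH readers, 1 rose and 1 fell in the YTHDC1 line, beside 2.48% and 2.77% of all genes, where Ythdc1 rose as above and Ythdf1, a cytoplasmic reader, fell by 0.27 (SE 0.064, edgeR adjusted p 0.0329). With the block 5 rose and 3 fell, beside 13.2% and 14.1% of all genes. METTL3 depletion raised 5 and lowered none, beside 11.3% and 8.8%, namely Wtap, Ythdf2, Virma, Ythdc1 and Ythdf1, by 1.07, 0.67, 0.62, 0.61 and 0.35 on the log2 scale. ZCCHC8 libraries differed less, where Rbm15 rose by 0.28 and Rbm15b by 0.11, and none fell, each by edgeR at an adjusted p under 0.05, beside 20.1% and 19.5% of all genes.

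The genes whose paired differences were most like those of Cebpz were Prmt6, Elobl, Mocs3, Cpne1 and Gm28036. Pearson's r over 18 differences of log2(CPM + 0.5), 1 per line, replicate and chase time, was 0.976, 0.957, 0.953, 0.95 and 0.948, the highest among 10910 genes with a mean of at least 5 CPM. Spearman's rho was 0.856, 0.804, 0.734, 0.670 and 0.771. The 6 differences of the YTHDC1 line lie apart from the other 12 for Cebpz, so r follows mainly the contrast of that line with the other 2, and it does not measure the size of the change.

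The like genes differed from Cebpz and among themselves in size and level. Cpne1, a copine that binds membranes in response to calcium, was nearest in size, at -1.20 on the log2 scale in the YTHDC1 line (SE 0.069), -0.13 in the METTL3 line (SE 0.13) and -0.14 in the ZCCHC8 line (SE 0.053). Gm28036, whose span overlaps Cpne1 on the same strand so that their reads may be shared, was at -0.48, -0.027 and 0.064. Prmt6, an arginine methyltransferase, was at -0.31 in the YTHDC1 line, but at 0.62 in the METTL3 line and 0.52 in the ZCCHC8 line. Mocs3, which acts in molybdenum cofactor synthesis, was at -0.57, 0.55 and 0.67, and Elobl at -0.14, 0.94 and 1.09. Prmt6, Mocs3 and Elobl thus rose in the 2 lines in which Cebpz did not pass the threshold without the block (edgeR adjusted p at most 0.0101 for each).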

How the data were processed

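SLAM-seq libraries were analysed from the tables deposited by the authors, 1 per line and replicate. The authors removed ribosomal RNA reads, aligned the rest to mm10 with STAR (2.5.2b) and ran GRAND-SLAM; its version, the use of strand and any gene filter are not given in the sources used here. The deposited counts are raw reads per gene. The deposited ratio is a fraction, with posterior quantiles, and conversions and T coverage are deposited signal sums. The deposited gene length served to identify Cebpz alone. Ratios were estimated separately per table. The tables held 108 sample columns that were not used.

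CPM scales reads to a common library total. Counts were tested per line by the robust quasi-likelihood test of edgeR (4.0.16), after filterByExpr and TMM, with chase time in the design. Tests were two-sided with Benjamini-Hochberg adjustment over all genes tested and a threshold of 0.05. The SE is the log2 fold change over the root of F. The line difference was an interaction over 36 libraries. Log2 ratios, and log2(CPM + 0.5) of new and old RNA, were tested with limma 3.58.1 on genes for which no library of the line had under 100 reads or a ratio under 0.02. DESeq2 1.42.0 was an alternative. Other software was matplotlib 3.10.9, scipy 1.17.1, pandas 2.3.3 and numpy 2.4.6 under Python 3.11.15, with R 4.3.3. The tests were tried on simulated data. The replicate numbers pair the samples, since the reporting notes tie a replicate to a common batch of cells, and the differences between replicates 1 and 2 correlated over genes between groups at 0.579 to 0.896 in the METTL3, 0.576 to 0.786 in the YTHDC1 and 0.108 to 0.244 in the ZCCHC8 line. Fits without the replicate block are given first, and those with it were alternatives. Cebpz, the gene lists and the tests were chosen with earlier results of these data known. Named genes were Cebpz, its neighbours within 500 kb that passed the low-count filter, the 5 genes with the highest Pearson r, the called list members with the largest changes (at most 4 per direction and line), the tagged genes and cell type markers; other unpassed list members, Gm43597 and Tbc1d10c were named after their values were seen.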

Additional observations from a re-analysis of the deposited data

How the results depend on the processing

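Precision was limited by 2 replicates per group and by 5274684 reads in the smallest library. The difference in Cebpz reads in the YTHDC1 line stayed between -2.10 and -1.91 on the log2 scale over all settings tried, and new RNA, old RNA and the ratio there moved by less than the spread between pairs. In the METTL3 line the log2 fold change of Cebpz reads ran from -0.051 to -0.20 over single replicates. Such fits have 1 library per group and hold no spread between batches of cells. The call on the ratio in the METTL3 line was lost by the T-to-C rate (-0.36) and in replicate 1 alone (-0.42 to -0.44 over single replicates). Some uncalled values changed sign in single replicates. In reads this was the METTL3 response minus the ZCCHC8 response (-0.099 to 0.12), while neither response changed sign by itself. In label loss it was the METTL3 line (-0.095 to 0.0094) and the ZCCHC8 line (-0.064 to 0.028). The ZCCHC8 ratio changed sign too (-0.11 to 0.0025). It was 0.011 over the library median, a setting chosen after the data were seen. The half-life of 6.17 h became 3.69 h by the T-to-C rate, 3.23 h at steady state and 4.87 h from new RNA; in the other arms no half-life could be fitted to the ratio, which rose. The cause was not tested.

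With a replicate block, Cebpz reads in the ZCCHC8 line passed (-0.096, edgeR adjusted p 0.0498; over the other settings 0.110 to 0.293), and it changed no other call on Cebpz and ended no call on a named gene of the lists or neighbours. The block gave 6994 called genes in the METTL3 line (2898 without), 3875 in the YTHDC1 line (746 without) and 6405 in the ZCCHC8 line. Of the large subunit list it called 20, 15 and 18 in the METTL3, YTHDC1 and ZCCHC8 lines, of the small subunit list 17 and 12 in the METTL3 and YTHDC1 lines, and of the neighbours 4, 3 and 3. Single replicates gave 5717 to 7472, 1335 to 3555 and 3409 to 5091 called genes, 14 to 29, 8 to 14 and 4 to 16 large subunit genes, 12 to 25, 8 to 13 and 5 to 16 small subunit genes, and 4 to 5, 1 to 4 and 0 to 3 neighbours in the 3 lines. In the YTHDC1 line DESeq2 called 1156 genes, 4 large subunit genes and 2 neighbours, and without a low-count filter 0 neighbours passed by edgeR. In the ZCCHC8 line 2 neighbours passed with DESeq2 size factors and 2 without a filter.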
